A study of Mus musculus with 10 samples.

Results

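A set of 10 genes that carry a Wnt signal from the cell surface to the nucleus was examined in colonic epithelium with and without RhoB, 10 of the 55487 genes measured. They were picked by name, for their place in the pathway: the frizzled receptors Fzd5, Fzd6 and Fzd7, the co-receptors Lrp5 and Lrp6, beta-catenin itself (Ctnnb1), and the TCF/LEF DNA-binding factors Tcf7, Tcf7l1, Tcf7l2 and Lef1. A Wnt protein binds a frizzled receptor together with Lrp5 or Lrp6, which stops the destruction of beta-catenin. Beta-catenin then enters the nucleus and binds a TCF/LEF factor on Wnt target genes, and a separate pool of it sits at cell junctions bound to E-cadherin. In the colon this pathway keeps stem and progenitor cells dividing at the crypt base and fades toward the surface, where cells differentiate.

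Intestinal epithelial cells (IECs) came from the colons of 5 wild type (WT) and 5 RhoB-/- mice of the strain C57BL/6J, with 1 RNA library per mouse. The RhoB-/- mice lacked the small GTPase RhoB in the whole animal, so a change in the epithelium need not arise there. WT mice were purchased and knockout mice were generated at another centre. No source used here gives the 2 genotypes as littermates, an age for these 10 mice, or any treatment of them, although the study used mice of 6 to 8 weeks unless stated otherwise. The cells were released from opened colons with EDTA and DTT and were not sorted.

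Values are TPM, which scale every library to the same total and divide by transcript length and can therefore be compared between genes, but which hold no sequencing depth. Rhob TPM lay between 170.5 and 388.7 in WT libraries and between 0.09 and 0.57 in 4 RhoB-/- libraries, while the library labelled RhoB-/- replicate 5 had 110.9. That library was kept under its label, and results are also given without it. The mitochondrial share of TPM was 17.5% to 26.5% in WT and 10.3% to 22.4% in RhoB-/- libraries, which moves all other TPM values within a library. The genotypes were compared with limma on log2(TPM + 1) for the 12870 genes whose mean TPM reached 1, and a gene was called at a Benjamini-Hochberg adjusted p under 0.05. On this scale the change of a low gene is understated. Their median over all tested genes was -0.13, so 0 is slightly above the typical gene. In bulk RNA, fewer cells of a type and less RNA per cell cannot be told apart.

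Of the 10 genes, 9 passed the filter, of which 4 were lower in RhoB-/- mice (Fzd6, Fzd7, Lrp5 and Tcf7l1), 1 was higher (Ctnnb1) and 4 were not called (Fzd5, Lrp6, Tcf7 and Tcf7l2). Over all tested genes 13.5% were called lower and 7.73% higher. Of all calls 36.5% were higher, which became 55.5% when each library was centred on its median gene and 22.8% without mitochondrial genes. The lower genes were 3 of the 5 receptors and co-receptors and 1 TCF factor, and they were called lower under each of these scalings. The median log2 fold change of the 9 genes was -0.19. The genotypes did not overlap for 5 of the 10 genes, 4 lower and 1 higher, against 8.55% of tested genes lower and 5.97% higher without overlap. The study also displayed Wnt genes that it chose on these same samples, so the direction of Wnt genes here is not independent evidence.

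**Figure D1:**
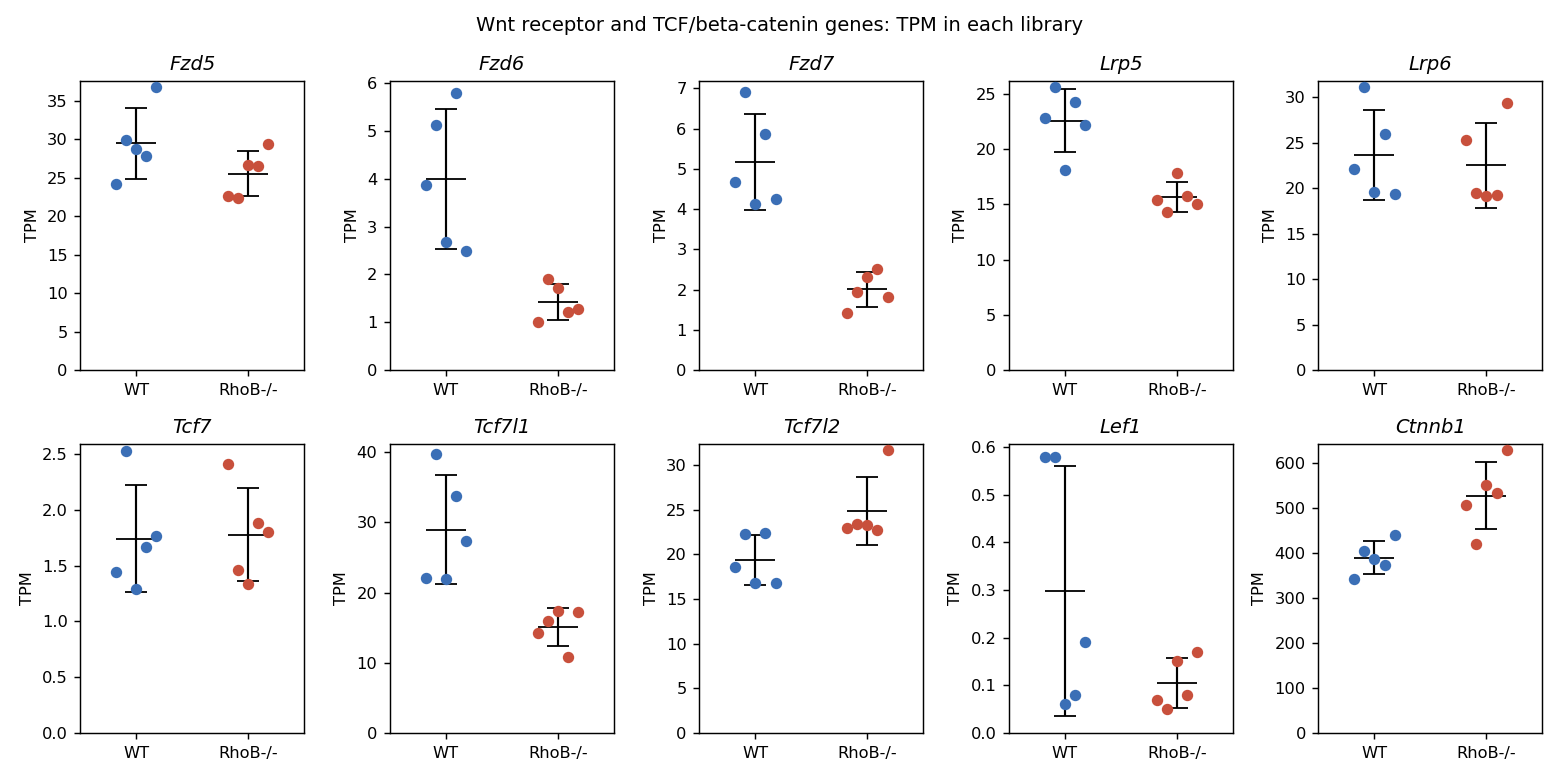
TPM of each of the 10 genes (vertical axis, linear and starting at 0) in 5 WT (blue) and 5 RhoB-/- libraries (red), with 1 point per mouse, the long bar at the mean and the whiskers at 1 SD. The red points lie wholly below the blue for Fzd6, Fzd7, Lrp5 and Tcf7l1, and wholly above them for Tcf7l2.

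The stretches of genome upstream of Fzd7, Tcf7l2 and Ctnnb1 are shown because these genes moved in different directions or, for Tcf7l2, ended higher in every RhoB-/- library. Each is the 250 bases before a RefSeq transcription start on GRCm38.p6, 5′ to 3′ on the gene's strand, and none overlaps a GENCODE exon. The start used for Ctnnb1 lies 4184 bases inside the GENCODE gene. They lie at chr1:59481897-59482146 (plus strand), chr19:55741560-55741809 (plus strand) and chr9:120933150-120933399 (plus strand). Capitals mark GC boxes, the letters GGGCGG or their reverse complement CCGCCC, which may overlap each other.
Fzd7: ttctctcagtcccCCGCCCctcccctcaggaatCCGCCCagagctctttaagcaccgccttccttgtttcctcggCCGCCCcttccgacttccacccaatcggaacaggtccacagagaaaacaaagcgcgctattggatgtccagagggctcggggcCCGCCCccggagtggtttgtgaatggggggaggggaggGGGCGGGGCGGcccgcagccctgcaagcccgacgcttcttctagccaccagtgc
Tcf7l2: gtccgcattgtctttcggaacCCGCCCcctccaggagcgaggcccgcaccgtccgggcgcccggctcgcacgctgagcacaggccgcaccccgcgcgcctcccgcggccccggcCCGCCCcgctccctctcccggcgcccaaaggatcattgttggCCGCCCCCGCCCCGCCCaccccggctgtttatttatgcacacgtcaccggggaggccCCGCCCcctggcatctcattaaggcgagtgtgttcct
Ctnnb1: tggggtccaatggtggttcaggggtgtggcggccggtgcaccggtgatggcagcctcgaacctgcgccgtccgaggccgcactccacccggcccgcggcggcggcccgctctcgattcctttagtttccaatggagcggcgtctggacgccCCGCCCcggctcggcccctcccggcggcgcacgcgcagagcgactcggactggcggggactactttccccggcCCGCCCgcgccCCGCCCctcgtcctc
The Fzd7 window held 6 GC boxes, that of Tcf7l2 6 and that of Ctnnb1 3, and 32.7% of all 32851 windows of this length held at least 1. The windows were rich in GC, at 65.2% for Fzd7, 72.8% for Tcf7l2 and 74.8% for Ctnnb1, against a median of 52.4% over all windows. They held 17, 30 and 35 CpG dinucleotides, against a median of 6. GC-rich upstream sequence was therefore shared by a gene that fell, a gene that rose and a gene that was not called. The letters CTTTGAT and CTTTGAA, 2 forms of the sequence that TCF/LEF factors bind, were searched on both strands and found in 0 of 13 windows of 7 of the 10 genes, and in 7.48% of all windows. Windows for Fzd6, Lrp5 and Lrp6 were not used here. A match or its absence describes these letters in these windows only.

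Fzd7 is a frizzled receptor that intestinal stem cells use to receive Wnt. Its gene (ENSMUSG00000041075) has a single exon and lies on the plus strand of chromosome 1, from 59482424 to 59486955. In WT libraries 1 to 5 its TPM was 4.68, 6.91, 4.14, 5.88 and 4.25, and in RhoB-/- libraries 1 to 5 it was 1.42, 1.95, 2.32, 2.52 and 1.82. Every RhoB-/- library was below every WT library, with a clear gap between the groups. The mean fell from 5.17 ± 1.19 to 2.01 ± 0.431 TPM (SD, n = 5 each). The log2 fold change was -1.03 (SE 0.16, adjusted p = 0.00117, limma), the smallest adjusted p among the 9 genes.

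Fzd6 (ENSMUSG00000022297) codes for a frizzled receptor best known from planar cell polarity and lies on the plus strand of chromosome 15, from 39006034 to 39038188. In WT libraries 1 to 5 its TPM was 3.87, 5.13, 2.67, 5.80 and 2.49, and in RhoB-/- libraries it was 1.01, 1.90, 1.71, 1.22 and 1.27. The WT values were spread over a wide range, yet the lowest of them stayed above the highest RhoB-/- value. The mean fell from 3.99 ± 1.46 to 1.42 ± 0.369 TPM (SD, n = 5 each), with a log2 fold change of -1.01 (SE 0.21, adjusted p = 0.00653, limma). Leaving out RhoB-/- replicate 5, the library with Rhob mRNA, kept both receptor calls. The log2 fold change was then -1.01 for Fzd7 (adjusted p = 0.00435, range over all alternatives 0.00047 to 0.00644) and -0.99 for Fzd6 (adjusted p = 0.0189, range 0.00329 to 0.0239, limma).

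Fzd5 (ENSMUSG00000045005), a frizzled receptor of intestinal epithelium and the most abundant frizzled gene here, did not pass the test. Its position is chromosome 1, 64730558 to 64737751, minus strand. Its TPM ranged from 24.3 to 36.9 in WT and from 22.4 to 29.5 in RhoB-/- libraries, with means of 29.5 ± 4.61 and 25.6 ± 2.99 (SD, n = 5 each). The groups overlapped, and the log2 fold change of -0.19 had a 95% interval from -0.46 to 0.07 (adjusted p = 0.27, limma). That interval holds 0 and does not reach the fold changes of Fzd6 and Fzd7.

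The frizzled genes were also set against each other within each library, which removes the scale of the library. The summed TPM of the 10 frizzled genes was 47.3 to 59.4 in WT and 35.0 to 42.8 in RhoB-/- libraries, without overlap. Fzd7 made up 7.51% to 11.6% of that sum in WT and 4.05% to 6.41% in RhoB-/- libraries, again without overlap. The share of Fzd6 was 4.40% to 10.5% in WT and 2.88% to 5.37% in RhoB-/- libraries, and the groups overlapped. Fzd5 supplied 50.3% to 65.2% of frizzled mRNA in WT and 63.4% to 68.9% in RhoB-/- libraries. The ratio of Fzd5 to Fzd7 was 5.19, 4.32, 6.96, 4.73 and 8.68 in WT libraries 1 to 5 and 16.0, 11.5, 11.5, 10.6 and 16.2 in RhoB-/- libraries. Fzd7 was therefore a smaller part of frizzled mRNA in RhoB-/- libraries. Their lower summed TPM, unlike the shares and ratios, keeps the scale of the library. These sums, shares and ratios are descriptions with no test.

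**Figure D2:**
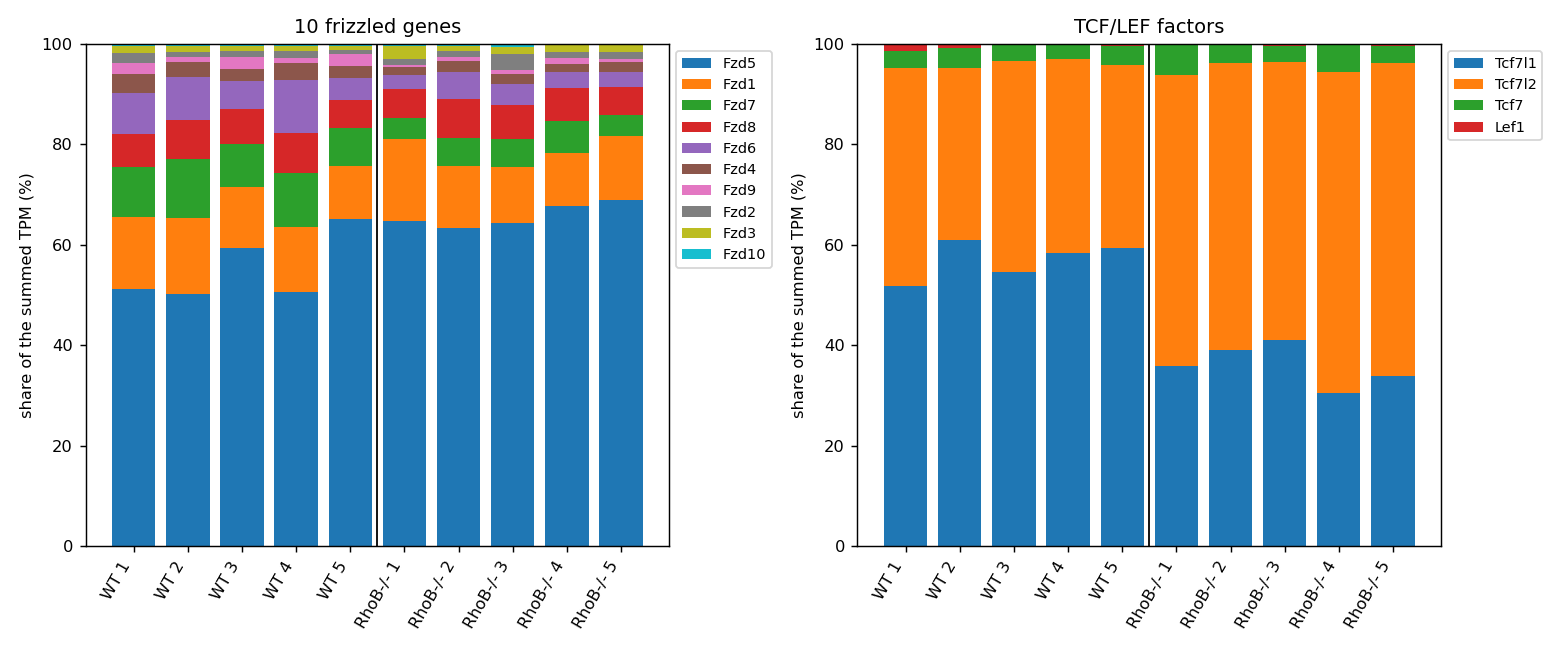
Share of each gene (%, vertical axis) in the summed TPM of the 10 frizzled genes (left) and of the 4 TCF/LEF genes (right), with 1 stacked column per library and a line between WT and RhoB-/-. Tcf7l1 takes 51.7% to 61.0% of TCF/LEF mRNA in WT and 30.4% to 41.1% in RhoB-/- libraries.

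Lrp5 and Lrp6 are the single-pass co-receptors that couple frizzled to the destruction complex, and only Lrp5 was called. Lrp5 (ENSMUSG00000024913) is a gene of chromosome 19 (3584828 to 3686564, minus strand). In WT libraries 1 to 5 its TPM was 22.82, 25.60, 18.12, 24.23 and 22.17, and in RhoB-/- libraries it was 15.42, 14.30, 17.85, 15.77 and 15.08. The groups did not overlap, although WT replicate 3 and RhoB-/- replicate 3 came close to each other. The mean fell from 22.6 ± 2.83 to 15.7 ± 1.33 TPM (SD, n = 5 each). The log2 fold change was -0.49 (SE 0.11, adjusted p = 0.00869, limma), a fold below 1.5. Without RhoB-/- replicate 5 it was -0.48 (adjusted p = 0.0231, range over all alternatives 0.00179 to 0.0421).

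Lrp6 (ENSMUSG00000030201), on chromosome 6 (134446476 to 134566965, minus strand), did not pass the test. Its TPM ranged from 19.3 to 31.1 in WT and from 19.2 to 29.4 in RhoB-/- libraries. Its log2 fold change was -0.07 with a 95% interval from -0.42 to 0.28 (adjusted p = 0.788, limma). Lrp5 mRNA was 0.823 to 1.15 times that of Lrp6 in WT and 0.513 to 0.932 times in RhoB-/- libraries, so this ratio overlapped between the genotypes. Whether the co-receptors changed unequally was not tested.

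Ctnnb1 (ENSMUSG00000006932) codes for beta-catenin and lies on the plus strand of chromosome 9, from 120929216 to 120960507. It was by far the most abundant of the 10 genes. In WT libraries 1 to 5 its TPM was 342.6, 405.0, 387.8, 373.1 and 439.9, and in RhoB-/- libraries it was 505.9, 420.6, 551.5, 533.3 and 629.0. All RhoB-/- libraries but replicate 2 were above every WT library, and replicate 2 was below WT replicate 5. The mean rose from 389.7 ± 36.2 to 528.1 ± 75.5 (SD, n = 5 each), with a log2 fold change of 0.43 (SE 0.12, adjusted p = 0.0293, limma). The call depended on single libraries: it was lost in 7 of the 10 fits that left 1 library out, and kept only without WT replicate 5, RhoB-/- replicate 2 or RhoB-/- replicate 3. Without RhoB-/- replicate 5 the adjusted p was 0.0644 (range over all alternatives 0.00169 to 0.0718). The log2 fold change was positive in all of these fits, from 0.34 to 0.55. Beta-catenin is mostly controlled through its protein, which was not measured here. By immunohistochemistry of colon sections, the study reported less nuclear beta-catenin in RhoB-/- than in WT mice.

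Since much beta-catenin protein sits at junctions, Ctnnb1 was compared with other genes of cell junctions. Ctnnb1 TPM was 1.06 to 1.48 times that of E-cadherin (Cdh1) in WT and 1.37 to 1.75 times in RhoB-/- libraries, and the groups overlapped. Against plakoglobin (Jup), the close relative of beta-catenin, the ratio was 2.84 to 3.35 in WT and 3.34 to 4.12 in RhoB-/- libraries, which overlapped only at their edges. Of the 8 listed cadherin junction genes 3 were called higher and none lower, against 7.73% higher and 13.5% lower of all tested genes. They were the cadherin Cdh17 (log2 fold change 0.60, adjusted p = 0.0125), p120-catenin Ctnnd1 (0.43, 0.0319) and the adhesion receptor Nectin2 (0.57, 0.0123, limma). Cdh1 (0.13, adjusted p = 0.477), Jup (0.21, 0.205) and alpha-catenin Ctnna1 (0.15, 0.300, limma) were not called. Ctnnd1, like Ctnnb1, lost its call in 7 of the 10 fits that left 1 library out.

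Tcf7l1 (formerly TCF3) is the TCF family member best known as a repressor of Wnt targets when beta-catenin is absent. The gene (ENSMUSG00000055799) is on chromosome 6 (72626378 to 72789254, minus strand). In WT libraries 1 to 5 its TPM was 22.09, 39.75, 21.88, 33.73 and 27.30, and in RhoB-/- libraries it was 14.20, 15.92, 17.31, 10.79 and 17.17. The lowest WT library was above the highest RhoB-/- library. The mean fell from 29.0 ± 7.73 to 15.1 ± 2.70 (SD, n = 5 each), with a log2 fold change of -0.88 (SE 0.18, adjusted p = 0.00645, limma). Without RhoB-/- replicate 5 it was -0.93 (adjusted p = 0.0138, range over all alternatives 0.00207 to 0.0255).

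Tcf7l2 (TCF4) is the main TCF factor of intestinal epithelium and is required for crypt proliferation. The gene (ENSMUSG00000024985) lies on the plus strand of chromosome 19, from 55741820 to 55933654, with 22 annotated transcripts whose use the gene-level TPM does not resolve. In WT libraries 1 to 5 its TPM was 18.62, 22.29, 16.84, 22.41 and 16.81, and in RhoB-/- libraries it was 23.02, 23.45, 23.35, 22.78 and 31.66. Every RhoB-/- library was above every WT library, but 4 of them by little, and replicate 5 stood apart at the top. The means were 19.4 ± 2.80 and 24.9 ± 3.82 (SD, n = 5 each). The log2 fold change of 0.34 (SE 0.13) did not pass the test (adjusted p = 0.0723, limma). It passed when each library was centred on its median gene (0.46, adjusted p = 0.00621) or quantile normalized (0.37, adjusted p = 0.0158), and without RhoB-/- replicate 5 it was 0.25 (adjusted p = 0.145, range over all alternatives 0.00621 to 0.149).

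Both TCF genes were expressed at like levels, and their order turned between the genotypes. The ratio of Tcf7l1 to Tcf7l2 was 1.19, 1.78, 1.30, 1.51 and 1.62 in WT libraries 1 to 5 and 0.617, 0.679, 0.741, 0.474 and 0.542 in RhoB-/- libraries. Tcf7l1 was thus above Tcf7l2 in each WT library and below it in each RhoB-/- library, whatever the library's scale. Mean shares of TCF/LEF mRNA moved from 57.0% to 36.0% for Tcf7l1 and from 39.0% to 59.4% for Tcf7l2. The summed TPM of the 4 genes overlapped between the groups, at 40.1 to 65.2 in WT and 35.5 to 50.8 in RhoB-/- libraries. The ratio was examined because both genes had been seen to move, so it is a description with no test.

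Tcf7 (TCF1) and Lef1 are best known from T cells and from highly Wnt-active tissue, and both were scarce. Tcf7 (ENSMUSG00000000782), on chromosome 11 (52252371 to 52283014, minus strand), had 1.29 to 2.53 TPM in WT and 1.34 to 2.41 TPM in RhoB-/- libraries. Its log2 fold change was 0.02 with a 95% interval from -0.35 to 0.39 (adjusted p = 0.934, limma). Lef1 (ENSMUSG00000027985), on the plus strand of chromosome 3 from 131110471 to 131224356, fell below the filter. Its TPM was 0.58, 0.58, 0.06, 0.08 and 0.19 in WT libraries 1 to 5 and 0.07, 0.05, 0.15, 0.08 and 0.17 in RhoB-/- libraries. The higher WT mean rested on WT replicates 1 and 2, and a two-sided exact permutation test of log2(TPM + 1) gave p = 0.175, where 0.00794 is the smallest p possible.

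The order of the levels separated the 10 genes into tiers. In WT libraries Ctnnb1 came first, followed by Fzd5, Tcf7l1, Lrp6, Lrp5 and Tcf7l2, then by Fzd7, Fzd6 and Tcf7, with Lef1 last. Neighbours in that order had ranges apart from each other only between Ctnnb1 and Fzd5, between Tcf7l2 and Fzd7 and between Tcf7 and Lef1. From Fzd5 to Tcf7l2, with mean TPM from 29.5 down to 19.4, the ranges of each gene and the next overlapped, although those of Fzd5 (24.3 to 36.9) and Tcf7l2 (16.8 to 22.4) did not. By mean TPM in RhoB-/- libraries, Tcf7l2 came after Fzd5 and ahead of Lrp6, Lrp5 and Tcf7l1, and Fzd6 dropped below Tcf7, at 1.42 against 1.78. Single libraries did not all keep this order, and ranges overlapped. Fzd5 was above Tcf7l2 in 2 of the 5 libraries, Lrp5 above Tcf7l1 in 3 and Tcf7 above Fzd6 in 3.

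Variation between mice was also compared with that of other genes, after the genotype means were subtracted. Over the 10 libraries, Fzd7 was most like Plxna3 (Pearson r = 0.962), AC149090.1 (0.960) and Gm10524 (0.960), and Fzd6 most like Gm42067 (0.965), Tmem135 (0.939) and St6galnac2 (0.937). Lrp5 was most like 2900097C17Rik (0.985), Tdg (0.980) and Itpripl1 (0.977). Tcf7l1 was most like Zfp451 (0.973), E430024I08Rik (0.971) and Atp9b (0.968), and Ctnnb1 most like Tec (0.980), Vps26a (0.970) and Anxa7 (0.960). These are the highest of 12870 values each, share their libraries, and are given as a description. None of the 5 called genes was among the 3 genes most like another.

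The rest of the pathway was read from 8 lists of 120 further Wnt genes, of which 73 passed the filter. Of these 4 were called higher and 18 lower, against 7.73% and 13.5% of all tested genes. Their median log2 fold change of -0.15 was near that of all tested genes, -0.13, and the higher count was near the background. The losses included other receptors: 6 of the 7 tested frizzled and Wnt-binding receptors were called lower and none higher, with a median of -0.56. Among them were Fzd1 (-0.44, adjusted p = 0.0328), Fzd4 (-0.59, 0.0263), the Wnt-binding kinases Ror1 (-0.99, 0.0139) and Ror2 (-0.80, 0.00506), and Ptk7 (-0.56, 0.0237). Fzd1 lost its call in 5 and Ptk7 in 2 of the 10 fits that left 1 library out, while Fzd4, Ror1 and Ror2 kept theirs. However, Fzd4, Ror1 and Ror2 reached the filter only through WT libraries. Their mean TPM was 1.59, 1.88 and 2.29 in WT and 0.722, 0.414 and 0.886 in RhoB-/- libraries. Their calls therefore add no support to the count of lower receptors, and the 4 receptors below the filter could not be called. The sixth receptor, Fzd8 (-0.43, adjusted p = 0.0461, limma), lost its call in 7 of these fits and is named after its values were seen. Lgr4, an R-spondin receptor that keeps frizzled on the cell surface, fell from 40.9 ± 9.34 to 25.5 ± 1.75 TPM (SD, n = 5 each; -0.64, adjusted p = 0.00814, limma). Its relative Lgr5 (-0.31, adjusted p = 0.227) and the ligases that remove frizzled, Rnf43 (0.09, 0.572) and Znrf3 (-0.49, 0.0545), were not called. Znrf3 was near the threshold and was called lower in 7 of 18 alternatives. Its groups did not overlap, at 1.30 to 2.38 TPM in WT and 0.78 to 1.15 TPM in RhoB-/- libraries.

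Of the 20 tested Dishevelled and destruction complex genes 3 were called lower, Dvl2 (-0.64, adjusted p = 0.0168), Btrc (-0.46, 0.0207) and Frat2 (-0.98, 0.00469), and none higher, which is near the 13.5% of all tested genes called lower. The scaffolds and kinase that destroy beta-catenin were not called, with log2 fold changes of -0.03 for Apc, 0.11 for Axin1 and 0.08 for Gsk3b. Of the 19 tested nuclear partners the corepressor Tle1 was called higher (0.41, adjusted p = 0.0263), and Tle2 (-0.59, 0.0321) and Tcf19 (-0.87, 0.018) lower, Tcf19 sharing only its name with the TCF/LEF family. Wnt genes themselves were scarce: 18 of the 21 ligand and secretion genes were below the filter, and 2 that act in Wnt secretion were called lower, Wls (-0.41, adjusted p = 0.0307) and Porcn (-0.75, 0.0223). Porcn reached the filter only through WT libraries, with a mean TPM of 1.89 in WT and 0.684 in RhoB-/- libraries. Neither tested secreted or membrane inhibitor was called. Leaving out 1 library lost the call of Wls in 6, of Tle1 and Tle2 in 4 each, and of Btrc and Tcf19 in 3 each of 10 fits.

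Of 14 tested Wnt target genes 4 were called lower and none higher, against 13.5% lower and 7.73% higher of all tested genes. They were the crypt transcription factor Sox9 (log2 fold change -1.16, SE 0.14, adjusted p = 2.49e-04, limma), the receptors Ephb2 (-0.47, 0.0186) and Ephb3 (-0.54, 0.0261) that position cells along the crypt, and the ion transporter Slc12a2 (-0.56, 0.0204). Sox9 fell from 23.2 ± 4.43 to 9.77 ± 1.62 TPM (SD, n = 5 each), without overlap. Axin2, a target often read as a gauge of the pathway, was not called (-0.33, adjusted p = 0.159). In the 10 fits that left 1 library out, Ephb3 lost its call in 7, Slc12a2 in 4 and Ephb2 in 1, and Sox9 kept it in all.

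**Figure D3:**
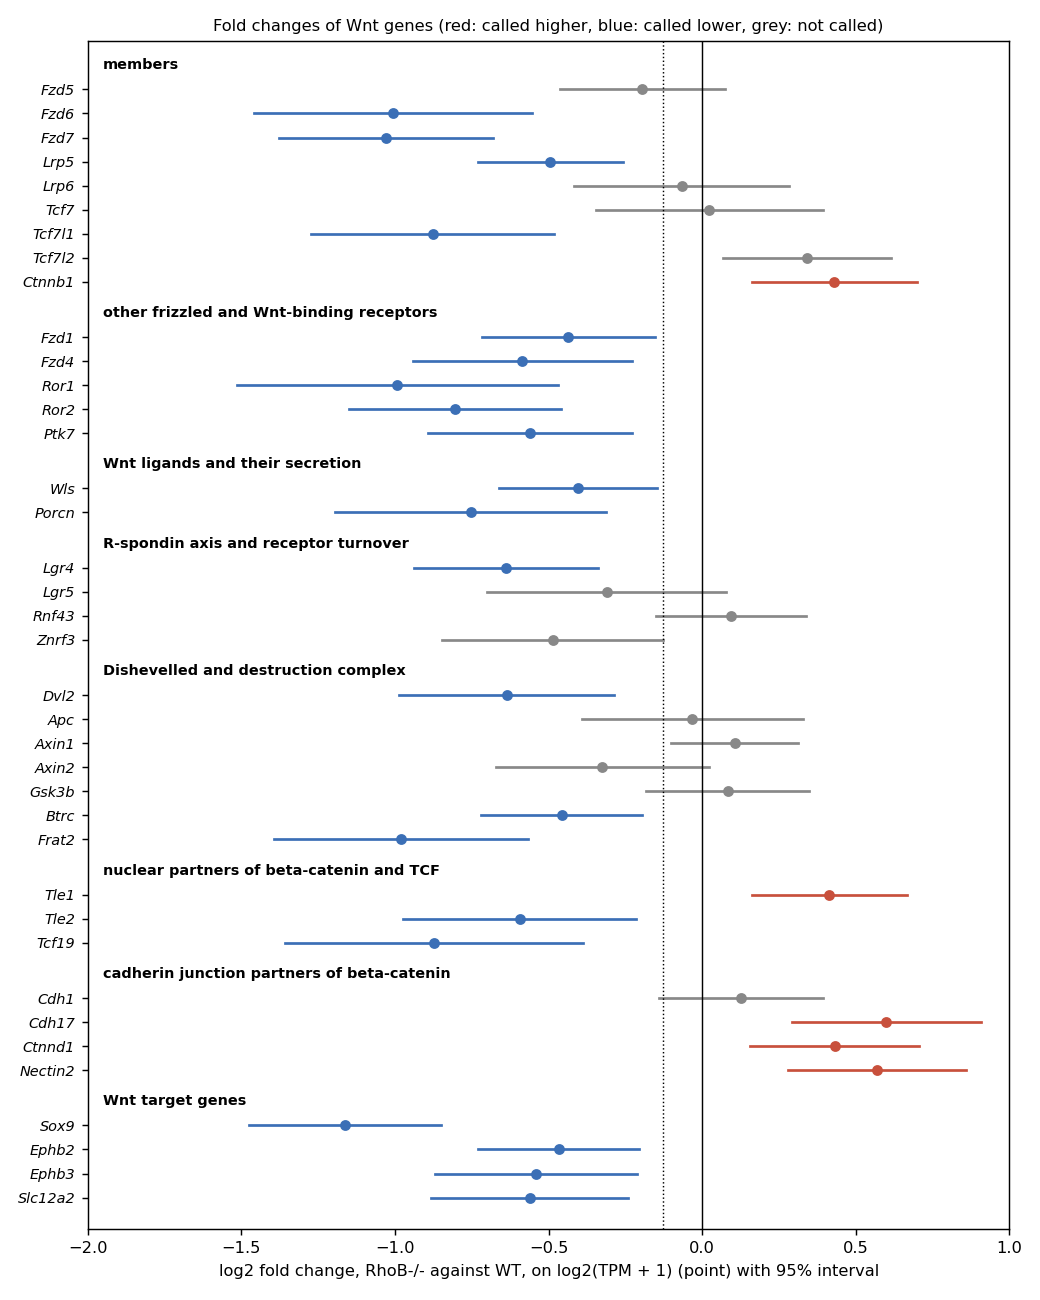
Log2 fold change (RhoB-/- against WT, on log2(TPM + 1), horizontal axis) with its 95% limma interval for the 9 tested genes and for named genes of the other Wnt lists, in red where called higher, blue where called lower and grey where not called. The dotted line is the median of all tested genes at -0.13. Most genes of the other lists are drawn because they were called, at most 5 per list. The side on which those points lie therefore follows from that choice.

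The epithelial label held: all 8 epithelial markers passed the filter, and Cdh1 had a mean TPM of 310.0 in WT and 336.6 in RhoB-/- libraries. All 8 had positive log2 fold changes, and 2 were called higher, Vil1 (0.65, adjusted p = 0.00638) and Cdx2 (0.42, 0.0447, limma). Over all tested genes 7.73% were called higher and 13.5% lower. Markers of cell states and of other cells also moved with genotype, and their part in the results above was not tested. All 14 markers of proliferating crypt cells had negative log2 fold changes, as had 65.4% of all tested genes. Of the 14 markers 5 were called lower, and their summed TPM (all 14) was 419.7 to 565.9 in WT libraries. In RhoB-/- libraries 1 to 5 that sum was 309.6, 214.4, 567.7, 357.1 and 280.0. The sum of replicate 3 was close to that of the highest WT library, 565.9, and the other 4 were below every WT library. Among these markers Mki67 mRNA was called lower (-0.69, adjusted p = 0.0307, limma). By staining of colon sections for its protein, Ki67, the study reported the opposite, more positive cells in RhoB-/- epithelium. Of 10 surface colonocyte markers 5 were called higher and none lower, and their sums, 15608 to 23825 in WT and 19287 to 35529 in RhoB-/- libraries, overlapped.

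**Figure D4:**
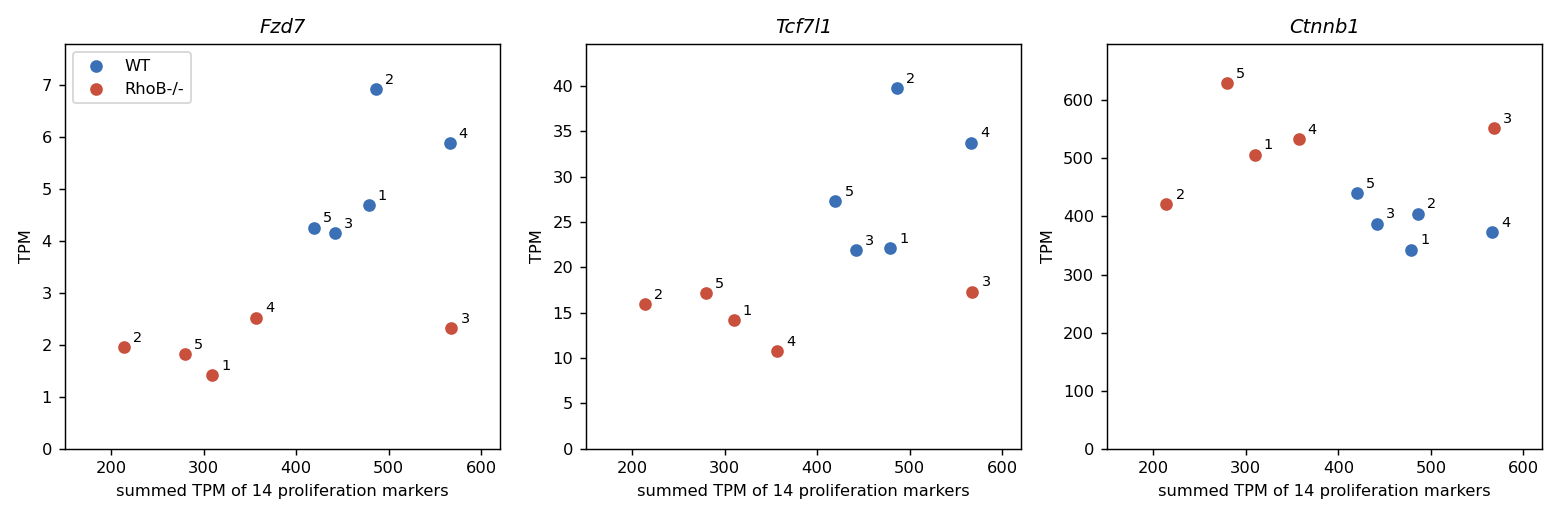
TPM of Fzd7, Tcf7l1 and Ctnnb1 (vertical axes, linear, starting at 0) against the summed TPM of 14 proliferation markers (horizontal axis) in each library, WT blue and RhoB-/- red, numbered by replicate. The marker sum of RhoB-/- replicate 3, 567.7, is close to that of the highest WT library, 565.9, and the sums of the other 4 RhoB-/- libraries lie below all WT libraries.

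Of 8 tested T cell markers 5 were called higher, against 7.73% of all tested genes. Of those called, Cd8a and Zap70 reached the filter only through RhoB-/- libraries, so they add no support to this count. Their mean TPM was 0.832 and 0.554 in WT and 2.94 and 1.47 in RhoB-/- libraries. T cell markers summed to 12.5 to 23.7 TPM in WT and 28.8 to 38.3 TPM in RhoB-/- libraries, without overlap. T cells also express Tcf7, which was not called, and Lef1, which was below the filter. Both were scarce here, and the part of T cells in their mRNA was not tested. Fibroblast markers summed to 4.50 to 6.72 TPM in WT and 7.13 to 36.8 TPM in RhoB-/- libraries, the highest in replicate 5, and 1 of 3 tested was called higher. Of the myeloid markers 1 of 3 tested was called higher, with sums of 16.4 to 28.9 and 21.8 to 42.0 TPM. The called gene, Cd68, also reached the filter only through RhoB-/- libraries (mean TPM 3.74, against 0.988 in WT). No gene of the B cell, endothelial or enteric glial and neuronal lists passed the filter, so none could be called, and 1 smooth muscle gene was tested and not called. B cell and plasma cell markers summed to 0.18 to 1.01 TPM in WT and 0.99 to 14.1 TPM in RhoB-/- libraries, again highest in replicate 5. The endothelial, smooth muscle and glial sums overlapped between the genotypes and reached at most 4.50 TPM.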

How the data were processed

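The libraries came from colonic IECs of 10 mice, and the labels gave each its genotype and number. Per the submitters' notes and the study's methods, reads were handled with HISAT2, StringTie and RSEM on GRCm38.p6 (edgeR is named without a role). The authors deposited TPM per gene, rounded to 2 decimals. TPM keeps no depth, so counting error is unknown and only the spread between mice limits precision.

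Here limma 3.58.1 in R 4.3.3 (lmFit, eBayes with trend) was run on log2(TPM + 1) over 12870 genes whose mean TPM reached 1, with Benjamini-Hochberg adjustment over these. The study names no test for these libraries. Its thresholds, an unadjusted p below 0.05 with a fold above 1.5, served as an alternative. The procedure was tested on simulated data with independent noise for each gene and library. Such data hold no shift shared by the genes of a library. Lef1, below the filter, was compared by an exact permutation test over 252 relabelings.

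The 10 genes and all lists were chosen with earlier results of these data known. Of the other Wnt lists, the called genes were named, at most 5 per list by size, with Axin2, Lgr5, Rnf43, Znrf3, Apc, Axin1, Gsk3b and Cdh1 whatever their values. For each called gene the 3 genes most like it were named. Positions are from GENCODE M21, and upstream windows are from RefSeq on GRCm38.p6.

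Alternatives were a pseudocount of 0.1, no filter, a mean TPM of at least 5, quantile normalization, centring of each library on its median gene, TPM without mitochondrial genes, no trend, a replicate block and each library left out in turn. Protein sequences were not used here.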

Additional observations from a re-analysis of the deposited data

Results flagged for a closer look

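Tcf7l2 in the library labelled RhoB-/- replicate 5 had 31.66 TPM, against 22.78 to 23.45 TPM in the other 4 RhoB-/- libraries. Its gap to the nearest library took 0.925 of the group's range, above Dixon's 95% critical value of 0.71 for 5 samples. It was the 1 such case in 20 groups examined (10 genes in 2 genotypes), and chance alone takes about 1 in 20 past that critical value. How often chance gives a gap as large as 0.925 was not worked out. The same library had a Rhob TPM of 110.9. Without it the log2 fold change of Tcf7l2 was 0.25 (adjusted p = 0.145, limma), and every remaining RhoB-/- library was still above every WT library.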

How the results depend on the processing

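The lower calls of Fzd6, Fzd7 and Tcf7l1 were kept in every alternative in which each was tested, and that of Lrp5 in all but the study's thresholds, where its fold is under 1.5. A mean TPM of at least 5 removed Fzd6 and Fzd7 and left 2 of the 10 genes called lower instead of 4. The number called higher, 1, was 2 with quantile normalization and with centring on the median (Tcf7l2 added), and 0 without a filter and at the study's thresholds (Ctnnb1 lost). Leaving out 1 library gave 0 to 1 higher and 4 lower. Over the 168 refits of the 9 genes, 155 kept the call, 11 lost it, 2 gained it and 0 reversed a called direction. The signs of Lrp6 and Tcf7, both near 0, did not hold in every fit.

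Of the other Wnt genes, 4 were called higher and 18 lower. The higher count was 8 with quantile normalization, 13 with centring and 1 at the study's thresholds, and 2 to 5 with 1 library left out. The lower count was 9 at a mean TPM of at least 5, 10 at the study's thresholds, and 9 to 20 with 1 library left out, 9 without WT replicate 4 and 11 without WT replicate 2 or RhoB-/- replicate 1.

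With the replicate block 0 of the 10 genes were called higher (Ctnnb1, adjusted p = 0.0528, range over alternatives 0.00169 to 0.0718), and of the other Wnt genes 2 were called higher and 10 lower. The numbers do not pair the mice: same-numbered libraries had correlations of -0.0874 to 0.072 after genotype means were subtracted, and 1 of 5 WT libraries was most like its own number.

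Scaling moved the balance of all calls: 36.5% of called genes were higher as reported (995 higher, 1734 lower), 55.5% with centring, 44.6% with quantile normalization and 22.8% without mitochondrial genes. Centring moved the median log2 fold change of all genes from -0.13 to -0.01. Depth is unknown, so it could not be weighed for genes of low TPM such as Fzd6, Fzd7 and Tcf7, whose counting error is not given.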

Other observations

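Several Wnt genes below the filter had groups that did not overlap. Fzd9 had 0.48 to 1.32 TPM in WT and 0.18 to 0.47 TPM in RhoB-/- libraries, and Nkd1, an inducible inhibitor of the pathway, 0.62 to 1.38 and 0.36 to 0.53 TPM. Wnt2b, a ligand of stromal cells, was higher in every RhoB-/- library than in every WT library, with mean TPM of 0.136 and 0.314 for WT and RhoB-/-. For each of these 3 genes the two-sided exact permutation p was 0.00794, the smallest possible with 5 against 5, with no adjustment. They were chosen from 47 other Wnt genes below the filter after their values were seen, because their groups did not overlap. Any such gene has this p, so it repeats the choice and is no test.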
